A study of Salmo salar with 48 samples.

Results

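Liver DNA methylation was compared between Atlantic salmon that had spent 4 weeks at 20 °C in fully aerated water and control salmon kept at 12 °C. The comparison takes 16 of the 48 fish of the series by their titles, 8 warm normoxic (WN) and 8 control (CT) fish. It covers 94 of the 107 CpGs that had calls in all 48 fish, those with 30 or more reads in each of the 16 fish. No CpG and no region differed past the threshold of an adjusted p of 0.05. The lowest p among the regions belonged to a sparsely methylated one on chromosome 3, which stood at 0.665% in the warm normoxic and 0.812% in the control group.

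Control fish stayed at 12 °C and 100% air saturation throughout. Warm normoxic fish were warmed by 1 °C each week until 20 °C was reached, also at 100% air saturation, and were sampled after 4 weeks at 20 °C. All were juveniles reared from the commercial broodstock of an aquaculture company, of the St. John River strain. Warm normoxic fish came from tanks T2 and T5 and control fish from tanks T3 and T4, with 4 fish per tank, and both groups held 5 males and 3 females. No tank held fish of both treatments, so that beyond these tanks the treatment and the tank cannot be told apart. Each library came from a piece of liver tissue, in which a change in the mix of cell types and a change of methylation within cells cannot be told apart. The amplicons hold no marker of the tissue, so its label could not be checked against the data.

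In vertebrates, methyl groups sit mostly on the cytosine of CpG dinucleotides, where DNA methyltransferases place and copy them, and TET enzymes start their removal. Most CpGs of a vertebrate genome are methylated, while dense clusters of CpGs at active gene starts are usually kept free of methylation. Salmon do not regulate their body temperature, so their liver, a centre of metabolism and plasma protein synthesis, takes on the temperature of the water. Bisulfite turns unmethylated cytosine into uracil, which is read as T, and leaves methylated cytosine as C. The methylation level of a CpG is therefore the percentage of its reads that still show C, and cytosines that escaped conversion are counted as methylated.

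The CpGs lie in 7 amplified regions, named here by chromosome, with positions on the reference sequences that the files name. Region ssa03 holds 16 CpGs at positions 13688232 to 13688647 of chromosome 3. Chromosome 4 carries ssa04 (35 Mb), with 18 CpGs at 35435825 to 35436217, and ssa04 (45 Mb), with 15 CpGs at 44947109 to 44947524. On chromosome 9, ssa09 covers 121687029 to 121687311 with 8 CpGs, and ssa14 has 14 CpGs at 33502562 to 33502977 of chromosome 14. Region ssa16 has the most CpGs, with 23 CpGs at 37941696 to 37942102 of chromosome 16. Region ssa15, with 13 CpGs at 46698401 to 46698820 of chromosome 15, was too shallow to test. The annotation used here describes a different assembly from the files, so the genes and gene parts at these positions were not analysed here.

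Calls in the regions ran from 2824806 to 4890736 per fish in the warm normoxic group and from 2998859 to 3886020 in the control group. Depth differed far more between regions than between groups. Median reads per CpG over the 16 fish were, among tested regions, lowest at ssa03, with 441, and highest at ssa09, with 92830. A pair of libraries stood apart. Warm normoxic fish 101 had 960 calls at 194 CpGs outside the regions, where no other fish of the comparison had more than 1. Control fish 108 had 59 reads per CpG at ssa04 (45 Mb), where the next lowest fish had 11991. Where fish 108 moves a value at ssa04 (45 Mb), some values are given with and without it. The tank mean of T3 there, the values with T2, T4 or T5 left out and the values on log2 scales include it.

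**Figure D1:**
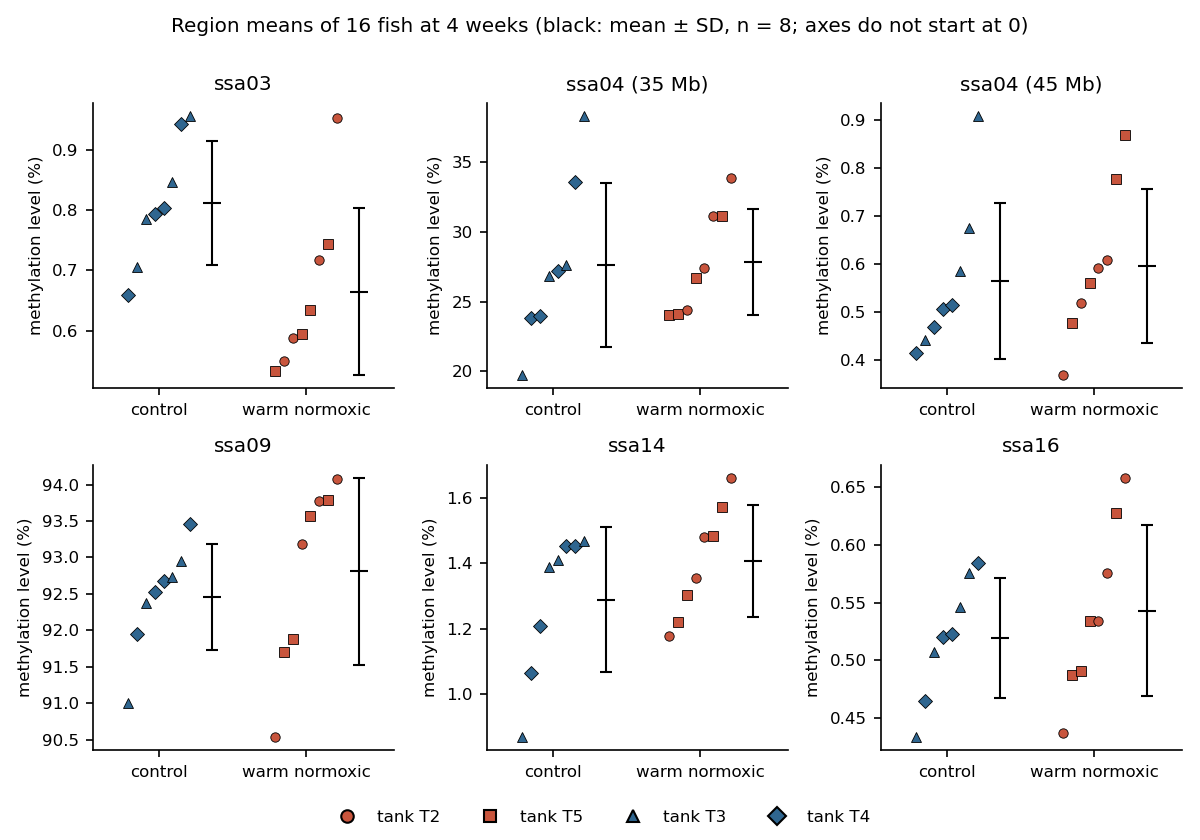
Region means of the 8 control and 8 warm normoxic fish at 4 weeks in the 6 tested regions, each point a fish, its shape the tank, with mean ± SD in black and the level in percent on axes that do not start at 0. The groups overlap in all 6 panels, and in ssa03 7 of 8 warm normoxic fish lie below the control mean of 0.812%.

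Region ssa03 was almost unmethylated in every fish and was the region with the lowest p. In warm normoxic fish its mean level ran from 0.534% through a median of 0.615% to 0.953%, and in control fish from 0.660% through 0.799% to 0.956%. Thus 7 of 8 warm normoxic fish were below the control mean and 5 were below every control fish, while fish 103 stood among the highest controls. The group means were 0.665% ± 0.138 and 0.812% ± 0.103 (SD, n = 8 each), or -0.147 percentage points for WN minus CT (95% confidence interval, CI, -0.274 to -0.0146). The exact permutation p of 0.0333 (two-sided) became 0.1995 after Benjamini-Hochberg adjustment over the 6 regions, so the difference did not pass. Of the 6 region means, 0 were called after adjustment (0%), and 1 (16.7%) had an unadjusted exact p under 0.05.

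Single fish mattered to this result. Leaving out warm normoxic fish 103 gave an ssa03 value of -0.188 points, which did pass (exact permutation p = 0.00295, adjusted p = 0.0177). Leaving out each of the other 15 fish in turn gave differences from -0.169 to -0.127 points and adjusted exact permutation p from 0.117 to 0.377. Weighting fish by their reads gave -0.234 points (exact permutation p = 0.0207, adjusted p = 0.124). That value leans on few fish. Warm normoxic fish 101 had 45339 calls at ssa03, and the next deepest fish of its group 7154. Control fish 111 and 107 had 141163 and 81187 calls, and the next deepest control fish 10167. With the median over CpGs in place of the mean the difference was -0.106 points (exact permutation p = 0.243), and ssa14 had the lowest p of the regions. M-values are the log2 of methylated over unmethylated calls, each with 1 added. The added call weighs more in shallow fish, and its part in the ssa03 value was not tested. In limma on M-values, ssa03 differed by -0.09 and likewise did not have the lowest p of the regions. The lowest was that of ssa04 (45 Mb) with -0.30 (limma, adjusted p = 0.786). That value for ssa04 (45 Mb) includes control fish 108, with 59 reads per CpG there, and limma was not run without this fish. In percentage points the difference of ssa04 (45 Mb) was 0.0316, and 0.0806 without fish 108.

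The lower level was present in both sexes and in both warm normoxic tanks. Males stood at 0.628% ± 0.0967 in the warm normoxic and 0.780% ± 0.113 in the control group (SD, n = 5 each). Females stood at 0.725% ± 0.198 and 0.864% ± 0.0712 (SD, n = 3 each). The tank means were 0.702% in T2 and 0.627% in T5, against 0.823% in T3 and 0.800% in T4 (n = 4 each). With 2 tanks a treatment, an exact permutation test over tanks cannot give a p below 0.333. Within ssa03, 11 of 16 CpGs were lower in warm normoxic fish and 5 higher, and the median difference was -0.0985 points. Over all 94 CpGs 42 (44.7%) were lower and the median difference was 0.0342 points.

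These ssa03 levels rest on few methylated calls. Unconverted cytosines count as methylated and no conversion rate is given. Their part in the levels of ssa03 and the other low regions was not tested. Warm normoxic fish had a median of 40 over the region, from 21 to 249, and control fish a median of 72, from 23 to 1132. The reads per CpG moved with the groups, with medians of 368 (warm normoxic) and 587 (control), and the part of this depth in the difference was not tested. A CpG without any methylated call occurred in 35 of 128 pairs of CpG and fish in the warm normoxic group (27.3%) and in 18 of 128 in the control group (14.1%). At the 192 reads of warm normoxic fish 104, a count of 0 allows a level of up to 1.56%, and at the 8839 reads of control fish 111 up to 0.0339%.

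The deepest fish give the narrowest view of the region. Control fish 111, with 141163 calls, had 0.802% methylated, with a 95% Wilson interval of 0.757% to 0.850%. Control fish 107, with 81187 calls, had 0.955%, with an interval of 0.890% to 1.02%. Warm normoxic fish 101, with 45339 calls, had 0.549%, with an interval of 0.485% to 0.622%. It is a single fish, the one with 960 calls outside the regions. Its region mean of 0.551% lay below the warm normoxic median of 0.615%. These intervals cover counting error only, since PCR reads without molecular identifiers are not independent molecules. The spread between fish of a group, 0.122 points, was 1.16 times what counting error alone gives at these depths.

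**Figure D2:**
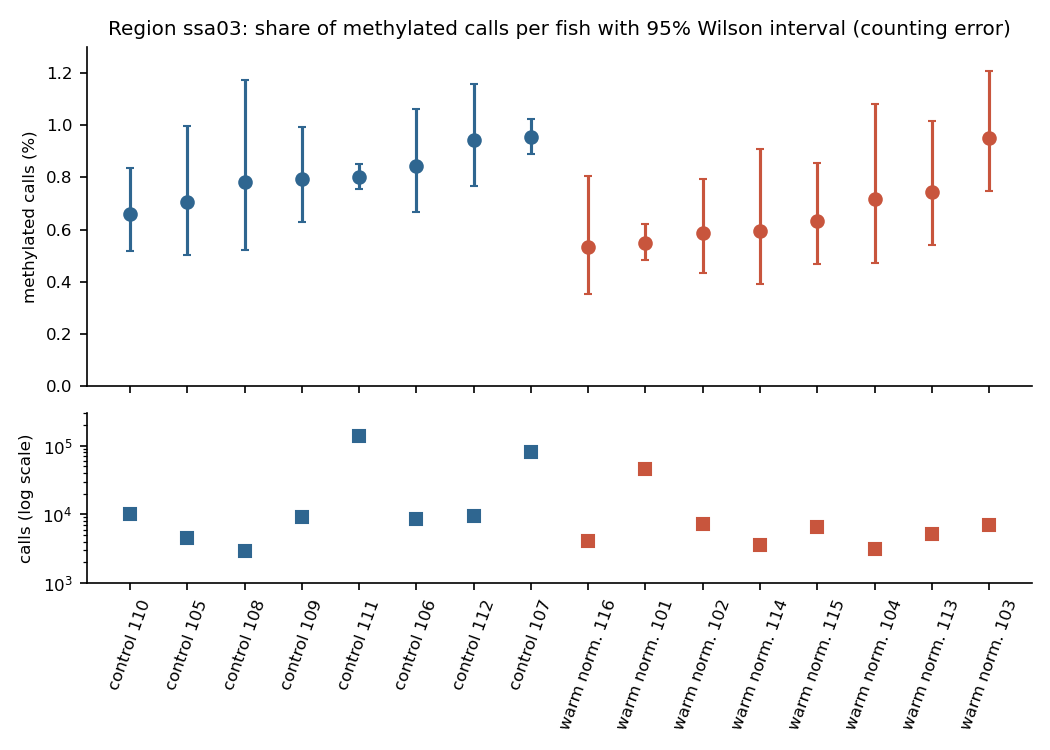
Upper panel, share of methylated calls over region ssa03 in each fish in percent with its 95% Wilson interval, and lower panel, the calls behind it on a log scale. Warm normoxic fish 101 at 0.549% and control fish 111 at 0.802% and 107 at 0.955% have the narrowest intervals.

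Region ssa04 (35 Mb) carried intermediate methylation and did not differ between the groups beyond the spread of the fish. Its mean level ran from 24.0% through 27.0% to 33.8% in warm normoxic and from 19.7% through 27.0% to 38.3% in control fish. The warm normoxic fish lay entirely inside the control range. The means were 27.8% ± 3.77 and 27.6% ± 5.86 (SD, n = 8 each), or 0.210 points for WN minus CT (95% CI -5.09 to 5.43, exact permutation p = 0.916, adjusted p = 0.916). The width of that CI reflects the spread between the libraries of the fish. Counting error was far smaller, but it takes PCR reads as independent molecules, which they are not. The sign of this small difference turned to -1.12 points without tank T2 and to -0.276 points without tank T4.

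The 18 CpGs of ssa04 (35 Mb) kept the same steep profile in both groups. The highest, at 35435919, stood at 62.8% ± 4.87 in the warm normoxic and 65.4% ± 6.70 in the control group, or -2.62 points for WN minus CT (n = 8 each, exact permutation p = 0.391). The lowest, at 35436037, stood at 2.70% ± 0.866 and 2.63% ± 1.55 (SD, n = 8 each). The widest gap was at 35435961, with 53.0% ± 10.5 and 50.3% ± 12.2, or 2.68 points for WN minus CT (95% CI -9.54 to 14.9, n = 8 each, exact permutation p = 0.650). Neighbouring CpGs could differ widely, as at 35436181 and 35436184, a pair chosen after its values were seen, where the warm normoxic means were 16.3% and 39.2% and the control means 15.1% and 39.7%. Of the 18 CpGs, 11 were higher and 7 lower in the warm normoxic group, where over all 94 CpGs 52 (55.3%) were higher.

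The CpGs of this region varied together across fish. The mean correlation between pairs of its CpGs across the 16 fish, taken around the group means, was 0.74, against 0.29 at ssa09 and between -0.04 and 0.01 at the other 4 regions. This is a description over fish in which CpGs of a region share their reads and depth. Counting error takes PCR reads as independent molecules, so the part of sampling and PCR in the following multiples was not tested. In multiples of counting error, the spread between fish was 141 for ssa04 (35 Mb) and 28.9 for ssa09. It was 11.6 for ssa14, 4.54 for ssa16 and 2.01 for the 45 Mb region, where it was 10.2 without the shallow fish 108.

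**Figure D3:**
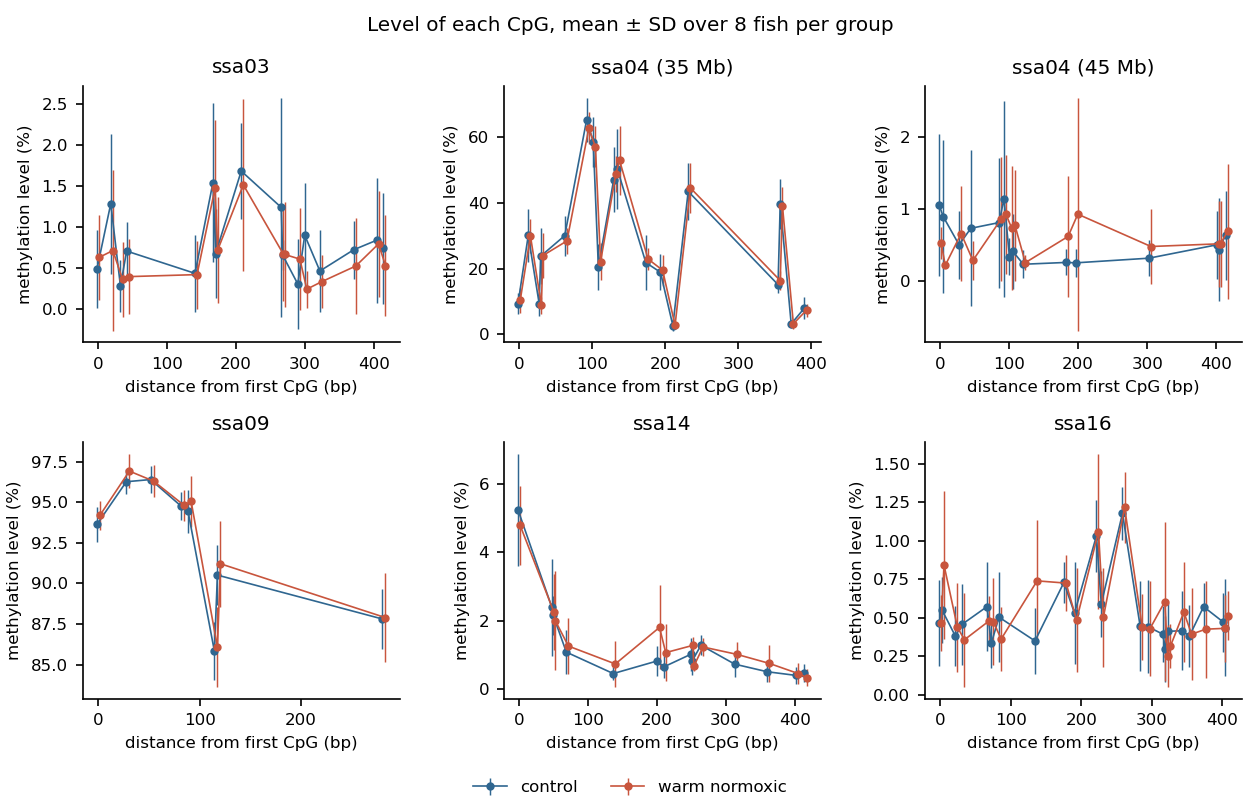
Methylation level in percent of each CpG against its distance in bp from the first CpG of its region, as mean ± SD over 8 control and 8 warm normoxic fish, with a scale of its own in each panel. Points of the groups are set slightly apart sideways and some SD bars of low levels pass below 0. In ssa04 (35 Mb) both lines run together, between 2.70% and 62.8% in warm normoxic fish.

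Region ssa09 was almost fully methylated in both groups. Its mean level ran from 90.5% through 93.4% to 94.1% in warm normoxic and from 91.0% through 92.6% to 93.5% in control fish. Of the warm normoxic fish, 4 lay above every control fish and 1 below every control fish. The means were 92.8% ± 1.28 and 92.5% ± 0.732 (SD, n = 8 each), or 0.352 points for WN minus CT (95% CI -0.790 to 1.47, exact permutation p = 0.507, adjusted p = 0.760). Leaving out a single fish gave between 0.145 points (without control fish 105) and 0.678 points (without warm normoxic fish 102), and 0.172 and 0.212 points without warm normoxic fish 101 and 114. Warm normoxic fish were higher at 7 of the 8 CpGs, which share their fish and reads, and at 52 of all 94 (55.3%). The widest gap was 0.697 points, at 121687148, with 91.2% ± 2.63 against 90.5% ± 1.87 (n = 8 each, exact permutation p = 0.548). By the mean over all 16 fish, the highest CpG, at 121687058, had 96.9% ± 1.06 and 96.3% ± 0.762. The lowest by that mean, at 121687145, had 86.1% ± 2.45 and 85.8% ± 1.79 (SD, n = 8 each).

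Males and females were also compared, a choice made after the data were seen. The differences had opposite signs in 4 of the 6 regions, and ssa09 had the lowest p. The 5 warm normoxic males stood at 93.4% ± 0.958 and the 5 control males at 92.1% ± 0.709, or 1.23 points for WN minus CT. The 3 warm normoxic females stood at 91.9% ± 1.33 and the 3 control females at 93.0% ± 0.472, or -1.11 points for WN minus CT. The difference between these effects, 2.35 points, had a permutation p of 0.0170 over residuals of the additive model and an adjusted p of 0.102 over the 6 regions, which missed the threshold. It was 3.01 points without warm normoxic fish 103 (permutation, adjusted p = 0.0180) and 2.77 points without warm normoxic fish 116 (permutation, adjusted p = 0.00630). Without warm normoxic fish 102 it was 1.68 points (permutation, adjusted p = 0.218). In the other 5 regions the adjusted permutation p of this difference was between 0.435 and 0.915.

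Region ssa04 (45 Mb) had low levels that the groups shared. They ran from 0.369% through 0.577% to 0.867% in warm normoxic and from 0.415% through 0.510% to 0.908% in control fish. The means were 0.596% ± 0.160 and 0.565% ± 0.161 (SD, n = 8 each), or 0.0316 points for WN minus CT (95% CI -0.142 to 0.201, exact permutation p = 0.6999, adjusted p = 0.840). The highest control value, 0.908%, was that of fish 108 and rests on 8 methylated of 878 calls. Leaving that fish out gave 0.0806 points (exact permutation p = 0.264). The tank means were 0.522% in T2 and 0.671% in T5, and 0.653% in T3, which held fish 108, and 0.477% in T4 (n = 4 each). By the mean over all 16 fish, the highest CpG, at 44947203, had 0.923% ± 0.830 and 1.14% ± 1.37. The lowest by that mean, at 44947231, had 0.250% ± 0.0999 and 0.228% ± 0.196 (SD, n = 8 each). The region's difference turned to -0.0566 points without T4 and to -0.0426 points without T5, both with fish 108 included. Without fish 108 the control mean was 0.516% (n = 7), below the T2 mean of 0.522%, so the turn without T5 rests on that fish. The other T3 fish, 105, 106 and 107, stood at 0.675%, 0.586% and 0.443%, and the value without T4 was not computed without fish 108.

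Region ssa14 was most methylated at its first CpG in both groups, and over all 16 fish its last CpG had the lowest mean. The first, at 33502562, stood at 4.80% ± 1.16 in the warm normoxic and 5.25% ± 1.64 in the control group, and the last, at 33502977, at 0.339% ± 0.236 and 0.475% ± 0.253 (SD, n = 8 each). The region mean ran from 1.18% through 1.42% to 1.66% in warm normoxic and from 0.867% through 1.40% to 1.47% in control fish, with 4 warm normoxic fish above every control fish and 2 control fish below every warm normoxic fish. The means were 1.41% ± 0.171 and 1.29% ± 0.223 (SD, n = 8 each), or 0.118 points for WN minus CT (95% CI -0.0926 to 0.334, exact permutation p = 0.259, adjusted p = 0.760). Leaving out control fish 107 gave 0.0576 points. Over 16 other settings, single fish left out not among them, the sign stayed and the region did not pass. Some of these settings could not change the difference. Other read minimums kept all CpGs of the region, since each had 18771 or more reads in every fish. Comparing within sex gave the same difference because the sexes were split alike in both groups. Over the 16 settings the p by permutation or limma ran from 0.0120 to 0.503, and the adjusted p from 0.0718 to 0.896. The lowest p was an exact permutation p, with the median over the CpGs of the region in place of the mean.

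Region ssa16, with the most CpGs, was also almost unmethylated. Its mean level ran from 0.437% through 0.534% to 0.658% in warm normoxic and from 0.433% through 0.521% to 0.584% in control fish. The means were 0.543% ± 0.0742 and 0.519% ± 0.0516 (SD, n = 8 each), or 0.0238 points for WN minus CT (95% CI -0.0449 to 0.0929, exact permutation p = 0.467, adjusted p = 0.760). Leaving out a single fish gave between 0.00745 points (without warm normoxic fish 104) and 0.0390 points (without warm normoxic fish 103), and 0.0116 and 0.0118 points without control fish 107 and warm normoxic fish 113. Its highest CpG, at 37941956, had 1.22% ± 0.232 in the warm normoxic and 1.18% ± 0.173 in the control group, and its lowest, at 37942017, had 0.250% ± 0.1998 and 0.297% ± 0.213 (SD, n = 8 each). Of its CpGs, 10 were higher and 13 lower in the warm normoxic group, where over all 94 CpGs 52 (55.3%) were higher.

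Single CpGs were then tested across all 94. In the exact permutation test 0 (0%) passed an adjusted p of 0.05, as in limma on M-values and in the test weighted by reads. Unadjusted, 4 CpGs (4.26%) had a p under 0.05, close to the 4.7 that chance alone gives among 94, with 2 higher and 2 lower in warm normoxic fish (2.13% each). At 0 CpGs (0%) did the groups lie apart without overlap. Warm normoxic fish were higher at 52 CpGs (55.3%). The median absolute difference was 0.172 points, and all 10 CpGs that differed by more than 1 point lay in ssa04 (35 Mb).

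**Figure D4:**
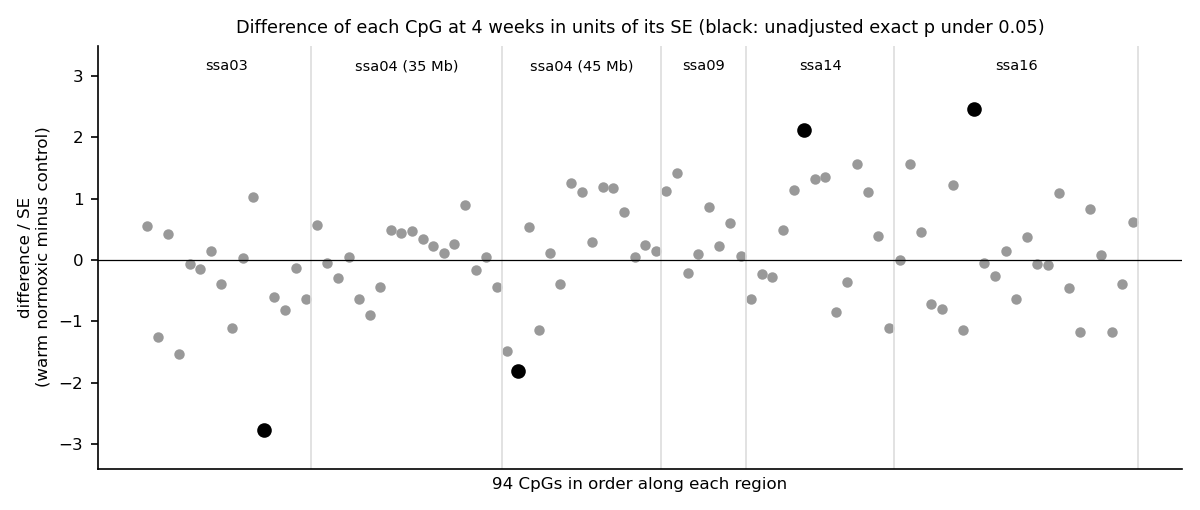
Difference between warm normoxic and control fish at each of the 94 CpGs, divided by its SE, in order along the 6 regions. The 4 black points are the CpGs with an unadjusted exact p under 0.05, of which 2 lie above and 2 below 0, in 4 different regions.

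The smallest p belonged to position 44947115 of ssa04 (45 Mb). Warm normoxic fish were tightly grouped there, from 0.156% through 0.229% to 0.244%, while control fish ran from 0.203% through 0.567% to 3.45%. None of the 8 warm normoxic fish reached the control mean, and 6 of the 8 control fish exceeded every warm normoxic fish. The means were 0.213% ± 0.0350 and 0.893% ± 1.06, or -0.680 points for WN minus CT (n = 8 fish a group, SE 0.376, exact permutation p = 0.00311, adjusted p = 0.292). The control maximum is that of fish 108, with 2 methylated of 58 reads. Without that fish the difference was -0.315 points, and over the 16 ways to leave out a fish the exact permutation p ran from 0.000777 to 0.0157 and the adjusted p from 0.0730 to 0.813. At 3 days the level of this CpG had been 0.630% ± 0.412 in the warm normoxic and 0.724% ± 0.603 in the control group (SD, n = 8 each). Its neighbour 6 bp upstream, at 44947109, stood at 0.524% ± 0.228 and 1.06% ± 0.995, or -0.534 points for WN minus CT (n = 8 each, exact permutation p = 0.0954), or -0.200 points without fish 108.

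The second, at 33502764 of ssa14, was higher in warm normoxic fish. They ran from 0.855% through 1.46% to 4.68%, and control fish from 0.147% through 0.852% to 1.68%. All 8 warm normoxic fish lay above the control mean and 3 lay above every control fish. The means were 1.81% ± 1.23 and 0.827% ± 0.449, or 0.981 points for WN minus CT (n = 8 fish a group, SE 0.462, exact permutation p = 0.0132, adjusted p = 0.584). Warm normoxic fish 102 held the highest value, and without it the difference was 0.570 points. At 33502876 of the same region the levels were 1.02% ± 0.350 and 0.731% ± 0.386, or 0.287 points for WN minus CT (n = 8 each, exact permutation p = 0.139).

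Position 13688533 of ssa03 was lower in warm normoxic fish. They ran from 0% through 0.262% to 0.521%, and control fish from 0% through 0.991% to 1.63%. None of the 8 warm normoxic fish exceeded the control mean and 5 control fish lay above all of them. The means were 0.245% ± 0.224 and 0.902% ± 0.633, or -0.657 points for WN minus CT (n = 8 fish a group, SE 0.237, exact permutation p = 0.0204, adjusted p = 0.584). The warm normoxic fish had between 0 and 6 methylated calls there on 192 to 2830 reads, and the control fish between 0 and 34 on 184 to 8808 reads. At 3 days the level of this CpG had been 0.499% ± 0.459 in the warm normoxic and 0.304% ± 0.218 in the control group (SD, n = 8 each). The 3-day difference, 0.195 points for WN minus CT, thus had the opposite sign. By the mean over all 16 fish, the region's highest CpG, at 13688441, had 1.52% ± 1.04 and 1.68% ± 0.587. Its lowest by that mean, at 13688266, had 0.367% ± 0.457 and 0.283% ± 0.311 (SD, n = 8 each).

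Position 37941832 of ssa16 was higher in warm normoxic fish, at 0.126% through 0.715% to 1.44%, against 0.108% through 0.352% to 0.700% in control fish. Of the warm normoxic fish, 7 lay above the control mean and 5 above every control fish. The means were 0.740% ± 0.394 and 0.349% ± 0.212, or 0.390 points for WN minus CT (n = 8 fish a group, SE 0.158, exact permutation p = 0.0249, adjusted p = 0.584). The highest value was that of warm normoxic fish 101, and without it the difference was 0.290 points.

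The base that follows the CpG is the one sequence feature the files give. The 94 CpGs were 26 in the context CGA, 22 in CGC, 16 in CGG and 30 in CGT. Warm normoxic fish were higher at 13 of the CGA, 8 of the CGC, 10 of the CGG and 21 of the CGT sites. The median differences were 0.0192, -0.0559, 0.0503 and 0.0773 points in that order. These counts are a description, since CpGs of a region share their fish and reads.

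Whether fish of one group varied more among themselves was asked with the mean absolute deviation from the group median. It was 0.989 points in warm normoxic and 0.495 points in control fish at ssa09, and 3.03 and 4.05 points at ssa04 (35 Mb). The exact permutation p was 0.226 at ssa09 and 0.534 at ssa04 (35 Mb), and the adjusted p was 0.887 in all 6 regions. No difference in spread was therefore detectable with 8 fish a group. At ssa04 (45 Mb) the control SD was 0.161 points with the shallow fish 108 and 0.0893 points without it (n = 7). The warm normoxic SD there was 0.160 points.

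Set beside the warm normoxic and control fish of 3 days, which are other fish of the same tanks, no region showed a change of the effect past the threshold. The sexes were not balanced in this comparison, since at 3 days the control group held 2 males and 6 females and the warm normoxic group 4 of each, and the part of sex was not tested. At ssa03 the 3-day effect was -0.0127 points (95% CI -0.152 to 0.126) and the 4-week effect -0.147 points, a change of -0.134 points (n = 32 fish, permutation p = 0.127, adjusted p = 0.382). The warm normoxic mean was 0.680% at 3 days and 0.665% at 4 weeks, whereas the control mean was 0.692% and 0.812%. At ssa14 the difference was -0.277 points at 3 days and 0.118 points at 4 weeks, a change of 0.395 points (n = 32 fish, permutation p = 0.113, adjusted p = 0.382). In the other 4 regions the adjusted permutation p was 0.877.

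Warm hypoxic fish of 4 weeks, warmed along the same ramp at 70% air saturation, were measured against the same 8 control fish, so their differences are given only side by side. They were 2 males and 6 females, against 5 and 3 in the control group. At ssa03 they stood at 0.560% ± 0.0948 (SD, n = 8), which put them -0.252 points from control (95% CI -0.359 to -0.146), beside -0.147 points in warm normoxic fish. At ssa04 (45 Mb) the differences were -0.136 points in warm hypoxic and 0.0316 points in warm normoxic fish, and without control fish 108 they were -0.0873 and 0.0806 points. At position 44947115 warm hypoxic fish had 0.756% ± 0.737 (SD, n = 8), beside 0.893% in the control and 0.213% in the warm normoxic group. Without fish 108 the control mean there was 0.528% (n = 7), so that the warm hypoxic mean passed from below to above it. At position 13688533 they had 0.277% ± 0.294 (SD, n = 8), beside 0.245% in the warm normoxic and 0.902% in the control group. The 3-day fish had 0.304% in the control and 0.499% in the warm normoxic group at this position.

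**Figure D5:**
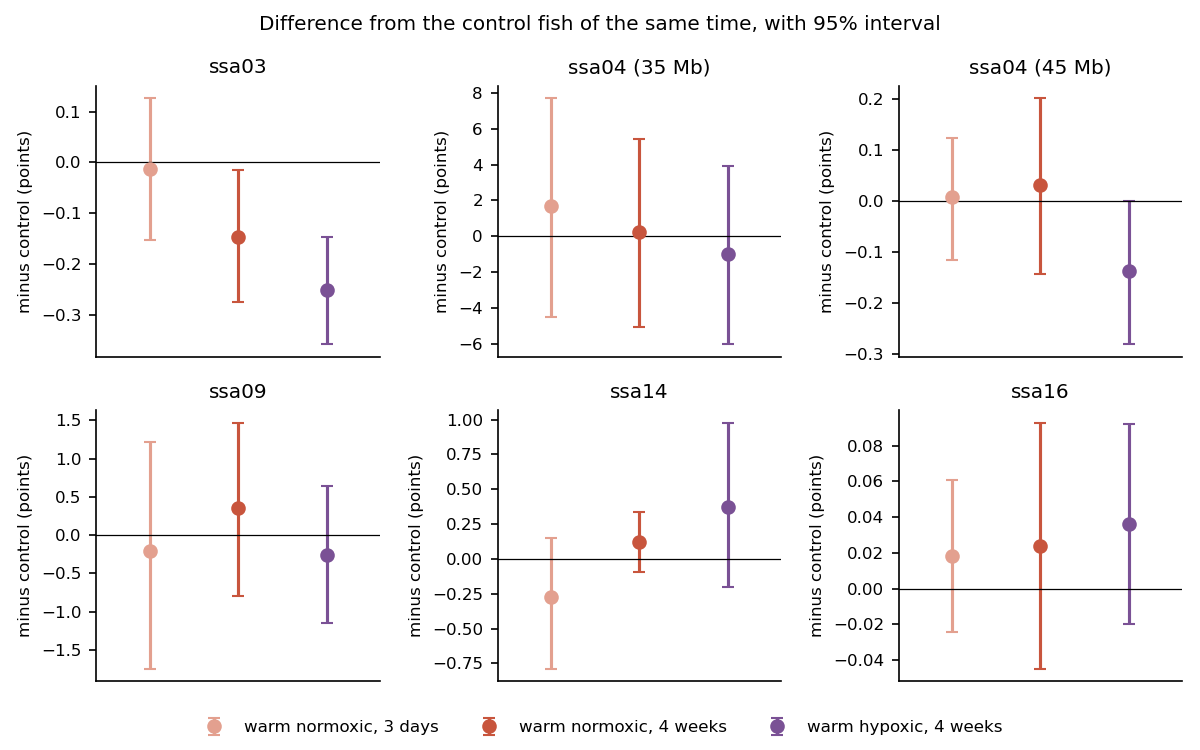
Difference in region mean from the control fish of the same time, in percentage points with its 95% interval, for warm normoxic fish at 3 days and at 4 weeks and warm hypoxic fish at 4 weeks. In ssa03 the points lie at -0.0127, -0.147 and -0.252, and both 4-week comparisons use the same 8 control fish.

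Region ssa15 did not enter the tests. The median reads per CpG were 227 in warm normoxic fish, from 16 to 2826, and 18.5 in control fish, from 1 to 49. Of the warm normoxic fish 7 reached 30 reads, and of the control fish 2. Pooled over fish, 1576 of 78661 calls were methylated in the warm normoxic group, a share of 2.00% with a 95% Wilson interval of 1.91% to 2.10%. In the control group 64 of 2286 calls were methylated, 2.80% with an interval of 2.20% to 3.56%. The pooled shares are weighted to the deepest fish and carry no spread between fish, so no comparison is made.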

How the data were processed

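The sources used here give, per the labels, bisulfite conversion of DNA from each liver, amplicon libraries and MiSeq sequencing. Bismark 0.20.0, Bowtie2, Trim Galore 0.4.4 and MultiQC 1.9 are listed in the submitters' processing notes; settings, duplicate handling, build name and conversion rate are not given in the sources used here. Per the file headers, the deposited values are counts of methylated and unmethylated calls per CpG cytosine, without normalization. Levels are 100 times the methylated calls over all calls.

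Regions are runs of CpGs with calls in all 48 fish, less than 1000 bp apart, and region means are unweighted over CpGs. Differences of group means were tested with all 12870 splits of the 16 fish (two-sided, smallest possible p 0.000155), with Benjamini-Hochberg adjustment over 94 CpGs or 6 regions, and 95% intervals hold the shifts this test did not reject. Changes of effect with time or sex were tested with 100000 permutations of residuals (20000 where a fish was left out). P-values measure the spread between fish, not between tanks. The most alike pair within a group had a chi-square per CpG of 58.3. No library was counted as a duplicate, but this value takes PCR reads as independent molecules and so cannot exclude one. Members, regions and tests were chosen with earlier results of these data known. The rule for named CpGs takes all past the threshold, the 6 smallest p, and in each region the highest and the lowest mean over the 16 fish and the largest difference. Alternatives included limma 3.58.1 (R 4.3.3) on M-values, log2((methylated + 1) / (unmethylated + 1)). It was fitted to all 48 fish, so its p-values also rest on the other groups, and on tank means to the fish of 4 weeks. With tank as a block the consensus correlation was -0.0627 for CpGs and -0.0460 for regions. This block lowered the limma p of all 6 regions. The main tests ran in Python 3.11.15 with numpy 2.4.6 and were tested on simulated data.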

Additional observations from a re-analysis of the deposited data

Results flagged for a closer look

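In 7 of 52 sets of 8 values (region means and named CpGs in each group), the highest fish stood apart from its group, with a gap to the next fish that exceeded Dixon's 95% critical value. Chance marks about 1 in 20 such sets if values are normal, which levels near the lower limit need not be. Some of these CpGs were also chosen for a small p or a large difference, so the share was not set against chance. Control fish 108 had 3.39% at position 44947109 and 3.45% at position 44947115 of ssa04 (45 Mb), with the next control fish at 1.34% and 0.923%. Control fish 106 had 0.672% at 44947231 of ssa04 (45 Mb), next 0.269%, and 2.90% at 13688441 of ssa03, next 1.86%. Control fish 105 had 1.05% at 33502977 of ssa14, next 0.589%. Warm normoxic fish 102 had 1.06% at 44947109 of ssa04 (45 Mb), next 0.620%, and 4.68% at 33502764 of ssa14, next 2.08%.

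Warm normoxic fish 101 had 960 calls outside the regions, at 194 CpGs on 6 reference sequences, of which 587 were methylated, above the 1 call of the highest control fish.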

How the results depend on the processing

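No paired analysis was possible because no replicate number, here the number of the fish, occurs in both groups. All values are WN minus CT in percentage points unless another scale is named. No alternative brought a CpG past the threshold, and leaving out fish 103 was the one that brought a region mean past it. Leaving out each fish in turn gave -0.188 to -0.127 for ssa03, -0.920 to 1.74 for ssa04 (35 Mb) and -0.00711 to 0.0806 for ssa04 (45 Mb). By position, the same gave -0.0292 to 0.170 at 13688266, -0.384 to 0.0486 at 13688441, -0.440 to 5.69 at 35435961 and -0.174 to 0.489 at 35436037. It gave -0.477 to 0.158 at 44947203, -0.0100 to 0.0860 at 44947231, -0.243 to 0.894 at 121687145, -0.0172 to 0.0819 at 37941956 and -0.101 to 0.0163 at 37942017. For the spread it gave -0.0152 to 0.0344 at ssa03, -1.61 to 0.0450 at ssa04 (35 Mb), -0.0190 to 0.0506 at ssa04 (45 Mb) and -0.0376 to 0.0409 at ssa14. For the effect in males minus that in females it gave -0.0809 to 0.101 at ssa03, -4.22 to 0.425 at ssa04 (35 Mb) and 1.68 to 3.01 at ssa09.

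The sign turned under several other settings, and the cause was not tested. With fish weighted by reads it was -0.282 at 13688266, -0.0217 at 44947231, -0.129 at 121687145 and -0.0503 at 37941956. In limma on M-values, with and without the tank block, the log2 difference was -0.30 for ssa04 (45 Mb) and -0.00578 for ssa16, as also on tank means, 0.15 at 44947203 and -0.30 at 44947231. For ssa03 it was -0.09 (limma, unadjusted p = 0.635). The limma values of ssa04 (45 Mb) and its CpGs include control fish 108, which had 0 methylated calls of 59 reads at 44947231. Values of that region and its CpGs without T4 or without T5, given below, also include this fish. Without tank T2 the difference in points was -1.12 for ssa04 (35 Mb), -0.425 at 35436037, 0.000620 at 33502562 and 0.00364 at 37942017. Without T3 it was 0.104 at 44947203, -0.531 at 121687145 and -0.119 at 121687148. Without T4 it was -0.276 for ssa04 (35 Mb), -0.0566 for ssa04 (45 Mb), -0.0364 at 13688266 and -0.0392 at 44947231. Without T5 it was -0.0426 for ssa04 (45 Mb), -0.0795 at 13688266, 0.587 at 13688441, 0.148 at 44947203 and -0.00748 at 44947231. Without fish 101 and 108, chosen after seeing the data, it was -0.0813 at 35436037, -0.00172 at 44947231 and -0.212 at 121687145. As a log2 ratio of SDs the spread of ssa04 (45 Mb), with fish 108 included, was -0.02. With a minimum of 100 reads ssa04 (45 Mb) gave no value, because fish 108 was too shallow there.

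Depth limits ssa03, where the spread between fish was 1.16 times counting error, and left ssa15 untested. The unknown conversion rate limits ssa03 and the other low regions.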
